A study of Xenopus tropicalis with 12 samples.

Results

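The response of the thra mutant brain to thyroid hormone was read from 6 of the 12 RNA-seq libraries of the series, chosen by their labels alone: the 3 mutant libraries that received T3 (3,5,3′-triiodothyronine, the active hormone) and the 3 mutant libraries that received vehicle. The other libraries, 3 from WT tadpoles given vehicle and 3 from WT tadpoles given T3, entered the same statistical fit and serve here to show where the mutant response differed. All tadpoles were Xenopus tropicalis at NF stage 54, a stage before the peak of metamorphosis, and were kept for 16 h in water with 5 nM T3 or with vehicle. The labels and the study's methods give the same amount of dilute NaOH as the vehicle, while the design text of the series names DMSO. Each library pooled, from 5 tadpoles, the brain region that holds the preoptic area, thalamus and hypothalamus, with the pituitary included. The mutant animals were homozygous offspring of heterozygous frogs of a single TALEN-made line, in which a frameshift in thra is predicted to end the protein before its DNA-binding domain. The study bought WT frogs but does not state whether the WT tadpoles were their offspring or siblings of the mutants. Genotype therefore cannot be told apart from a possible difference of origin. No identifier could be paired with thra, so its mRNA was not analysed here and genotypes were taken from the labels without a check.

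T3 acts through nuclear receptors made from thra and thrb. In tadpoles the receptors sit on target genes without hormone and recruit corepressors, and T3 turns them into activators. The thra receptor is present in the brain before the thyroid is active, whereas thrb is itself a direct T3 target and its mRNA rises as metamorphosis begins. A T3 response in a thra mutant brain is therefore a response in tissue whose remaining known T3 receptor gene is thrb.

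Libraries held between 50211300 and 67603703 summed expected counts in the mutant groups. Of 33875 features in the deposited table, 22018 had enough counts to test. Values below are CPM, expected counts divided by TMM-scaled library size so that libraries of unlike depth can be compared, with the SD over 3 libraries; fold changes are log2 of T3 over vehicle with the standard error (SE) of the fit, and a feature is called at an adjusted p (Benjamini-Hochberg, over all features tested) below 0.05 in edgeR's quasi-likelihood test. Replicate libraries were separate pools and differed well beyond counting noise (chi-square per degree of freedom 15 to 22.1 for replicate pairs), so no library was counted as a repeat of another. Along the first principal component of the 6 libraries, which held 36% of their variance, every T3 library lay on the other side of 0 from every vehicle library. T3 replicate 1 lay nearest to the vehicle libraries, at 5.14 against 16 and 13.5 for the other T3 libraries, and the vehicle libraries ranged from -16.1 to -5.96.

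T3 changed 56 of 22018 features in the thra mutant brain (0.254%). Of these, 44 rose (0.2% of the features tested) and 12 fell (0.0545%). Among the risen features were thibz, klf9, thrb and dio3, known direct targets of the T3 receptor. In every called feature the 3 T3 libraries lay all above or all below the 3 vehicle libraries, a separation that 15.2% of all features tested showed (7.7% with T3 higher and 7.48% with T3 lower). The same test in WT called 2399 features (10.9%), with 5.37% higher and 5.53% lower. Changes in the mutant were mostly small: the median log2 fold change of the 44 risen features was 0.83, with 17 of them at least 2-fold and 12 below 1.5-fold, and that of the 12 fallen features was -0.57, with 1 at least 2-fold. The median over all features tested was 0.00. An unadjusted p below 0.05 was found for 9.76% of the features, of which 1224 were higher in T3 (5.56%) and 924 lower (4.2%).

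**Figure D1:**
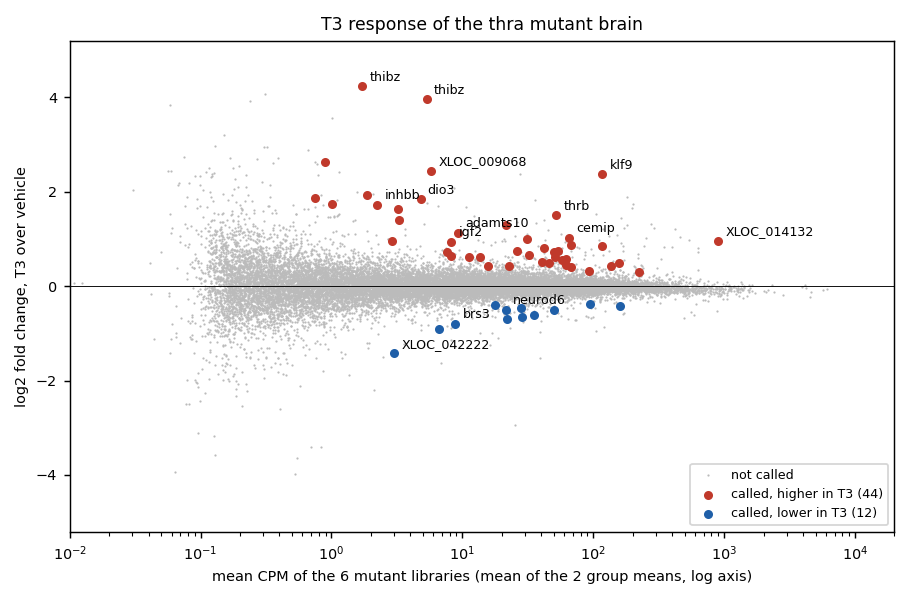
Log2 fold change of T3 over vehicle (vertical axis) against mean CPM (horizontal log axis) for features of the thra mutant brain; grey points were not called, red points were called higher and blue points called lower in T3. The 44 risen features reach 4.24 on the log2 scale and the 12 fallen features reach -1.42; 22 features, none of them called, have values outside the drawn range.

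The number of called features depended on single libraries and on the test. Without mutant T3 replicate 1 the fit called 179 features, 160 higher and 19 lower, and 48 of the 56 were among them. Without mutant vehicle replicate 2 it called 25, and without WT vehicle replicate 3, which enters through the shared estimate of the spread, 122. The other libraries that moved the number by more than 1.5 times when left out were WT vehicle replicate 2 (35 features), WT T3 replicates 1, 2 and 3 (36, 34 and 33), mutant vehicle replicates 1 and 3 (29 and 36) and mutant T3 replicates 2 and 3 (26 and 29). DESeq2 called 393 of the 18602 features to which it gave an adjusted p (2.11%), with 55 of the 56 among them. Limma-voom called 41 of the 56. In all 12 fits that left out 1 library, 18 features were called, among them thibz (XLOC_028082), klf9, dio3, thrb, adamts10, nr3c2, nfic, nacc2, pappa and pim3.

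**Figure D2:**
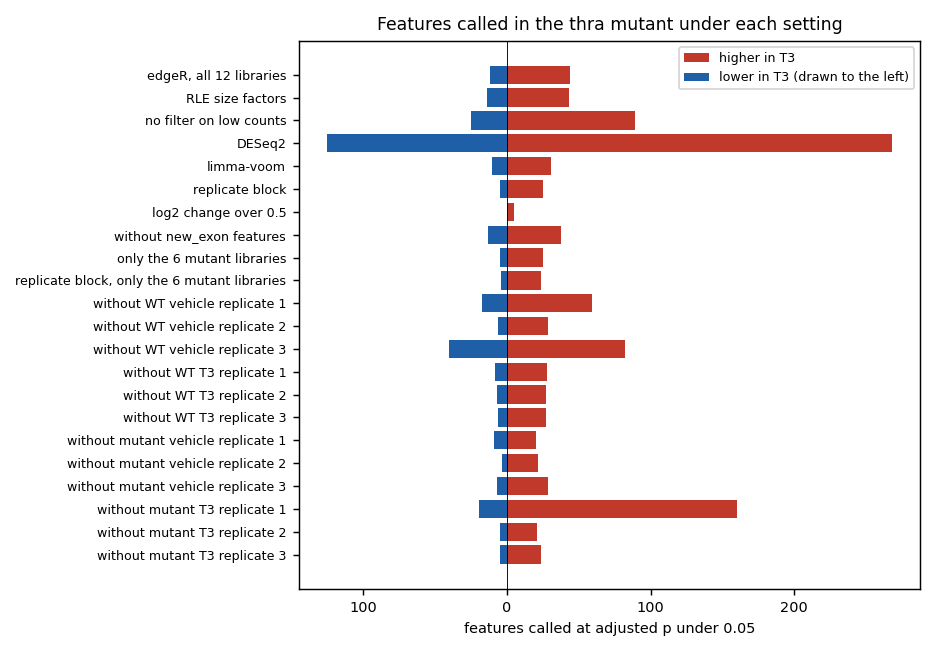
Number of features called higher (red, to the right) and lower (blue, to the left) in T3 in the thra mutant under each setting, with the fit of all 12 libraries at the top. Bars run from 5 higher and 0 lower features when a log2 change over 0.5 was required to 268 higher and 125 lower with DESeq2; among the fits without 1 library, the bar without mutant T3 replicate 1 is the longest, with 160 higher and 19 lower.

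Gene symbols were available for 1544 of the features tested, all of them features that the study had listed as T3-regulated in its WT libraries, so most named genes are genes induced in WT. Of the 56 called features 25 had a symbol, 23 risen and 2 fallen, and 31 had an identifier alone, 21 risen and 10 fallen. Because the symbols follow the WT response, the balance of risen and fallen named genes is no measure of the mutant response. For the same reason the WT medians of the gene lists below are enlarged. Over all features with a symbol the median was 0.05 in the mutant and 0.29 in WT, so a lower list median in the mutant is a description only. Over all 56, 30 features rose in both genotypes and 9 fell in both, by the same threshold. The gene neurod6 and XLOC_044169 were called in opposite directions. A further 13 risen and 2 fallen features were not called in WT.

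The largest changes belonged to thibz, which encodes a leucine zipper transcription factor induced by T3 in tadpole tissues. The annotation holds 2 features with this symbol, between which the counting program may split reads. XLOC_028082 stood at 0.429, 0.544 and 0.923 CPM in the vehicle libraries and at 11.7, 9.74 and 8.78 CPM in the T3 libraries. Every T3 library was thus far above every vehicle library, and the mean rose from 0.632 ± 0.258 to 10.1 ± 1.5 CPM (SD, n = 3 each), a 15.6-fold change (log2 3.97, SE 0.24, adjusted p = 4.3e-06 by edgeR). XLOC_028061 stood at 0.206, 0.338 and 0 CPM in vehicle and at 3.43, 2.71 and 3.63 CPM in T3 (log2 4.24, SE 0.66, adjusted p = 0.02 by edgeR). At this low level DESeq2 gave it an adjusted p of 0.073. With both features summed, an alternative added after the data were seen, the log2 fold change was 4.03 (SE 0.20, adjusted p = 6e-07 by edgeR), and the mutant response was smaller than the WT response of 6.15 by 2.13 on the log2 scale (adjusted p = 0.0067 by edgeR).

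The zinc finger transcription factor klf9, another direct T3 target with a known role in neuronal differentiation, was measured at a far higher level. Its CPM was 40.9, 39.5 and 33.3 in vehicle and 221, 184 and 186 in T3. That is a 5.2-fold rise, from 37.9 ± 4.07 to 197 ± 21 CPM (log2 2.38, SE 0.24, adjusted p = 0.00079 by edgeR), and the call held in all 12 fits with 1 library left out. In WT the log2 fold change was 3.98, and the difference between the genotypes, -1.61 (95% interval -2.31 to -0.90), missed the threshold (adjusted p = 0.051 by edgeR). It was called in 6 of 19 alternative settings. In WT vehicle, replicate 3 stood at 10.6 CPM, against 25.1 and 27 CPM in replicates 1 and 2. The related gene klf13 was at 125 CPM in vehicle and 121 CPM in T3, with a 95% interval of its log2 fold change from -0.17 to 0.07.

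The remaining T3 receptor gene, thrb, was itself induced without thra. Its CPM was 29.6, 25.9 and 25.6 in vehicle and 80.9, 78.4 and 71.6 in T3, with no overlap between the groups. The rise was 2.84-fold (log2 1.51, SE 0.08, adjusted p = 2.6e-06 by edgeR). In WT its mean was 13 CPM in vehicle and 112 CPM in T3. The mutant response was smaller than that of WT by 1.6 on the log2 scale (adjusted p = 4.8e-05 by edgeR).

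The gene dio3 encodes the deiodinase that inactivates T3, and its mutant response was not distinguished from that of WT. It stood at 1.84, 2.68 and 1.77 CPM in vehicle and at 7.58, 7.7 and 7.16 CPM in T3. The log2 fold change was 1.84 in the mutant (SE 0.18, adjusted p = 0.00079 by edgeR) and 1.98 in WT, and the 95% interval of the difference, -0.68 to 0.40, leaves room for a change of moderate size in either direction. The same list of receptors, transport and inactivation held the receptor partner rxrb (log2 0.07, 95% interval -0.08 to 0.22). Thus 2 of its 4 features rose and none fell, with a median log2 fold change of 0.92. Of all features tested, 0.2% rose and 0.0545% fell. DESeq2 called 3 of the 4 higher.

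**Figure D3:**
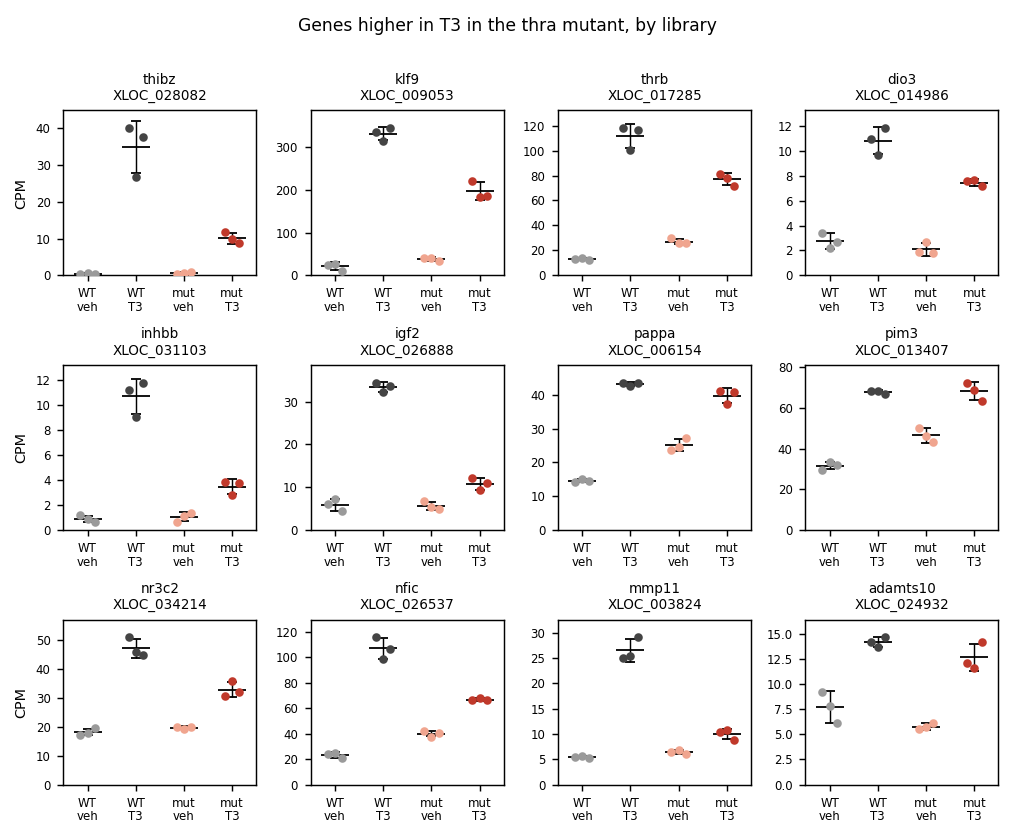
CPM of 12 called genes (vertical axes from 0, a scale for each gene) in each library of the 4 groups; points are libraries, and bars show the mean and SD of 3. In each panel the mutant T3 points lie above the mutant vehicle points, by 15.6-fold for thibz and 1.47-fold for pim3.

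Genes of growth factor signalling rose by smaller factors. The growth factor gene igf2 stood at 6.66, 5.31 and 4.84 CPM in vehicle and at 12.1, 9.32 and 11 CPM in T3 (log2 0.95, SE 0.16, adjusted p = 0.039 by edgeR). Its groups did not overlap, but 8 of the 12 fits with 1 library left out lost the call. The mRNA of pappa, a protease that frees IGF from its binding proteins, rose from 25.1 ± 1.76 to 39.8 ± 2.25 CPM (log2 0.66, SE 0.07, adjusted p = 0.00079 by edgeR). The survival kinase pim3 rose from 46.4 ± 3.57 to 68.1 ± 4.49 CPM (log2 0.55, SE 0.07, adjusted p = 0.0037 by edgeR). For all 3 genes the WT response was larger, with log2 fold changes of 2.51, 1.57 and 1.1 and adjusted p of the difference of 0.011, 0.00096 and 0.027 by edgeR. In WT the mean went from 5.86 to 33.4 CPM for igf2, from 14.6 to 43.2 CPM for pappa and from 31.6 to 67.8 CPM for pim3. The T3 levels of pim3 were thus close in the 2 genotypes and those of pappa nearly so, while their vehicle levels were higher in the mutant. The other 10 of the 13 features of the list were not called, among them irs1, an adaptor of the insulin and IGF receptors (log2 0.33, adjusted p = 0.07), and the receptor gene igf1r (log2 0.32, adjusted p = 0.16). Among the 1544 features with a symbol, 23 rose and 2 fell. The growth factor list had a median of 0.26 in the mutant and 0.36 in WT.

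Among nuclear receptors other than the T3 receptors, nr3c2, the mineralocorticoid receptor, rose and the other 3 features were not called, where 23 of the 1544 features with a symbol rose and 2 fell. The CPM of nr3c2 was 19.8, 19.1 and 19.9 in vehicle and 30.7, 35.7 and 31.9 in T3. The vehicle libraries lay within 1 CPM of each other and below all T3 libraries, and the rise was 1.67-fold (log2 0.74, SE 0.08, adjusted p = 0.00084 by edgeR). The retinoic acid receptor gene rara had a log2 fold change of 0.16, and was not called (adjusted p = 0.52). None of 17 features of receptor co-regulators on the fixed list was called, and the median of that list was 0.05 in the mutant and 0.30 in WT. In kdm6b, a histone demethylase gene with 2 features, T3 replicate 1 stood apart at 522 CPM for XLOC_004992, while the other T3 libraries, at 339 and 340, lay close to the vehicle libraries at 329 to 343.

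Transcription factor genes besides thibz and klf9 rose too. The gene nfic, of the nuclear factor I family, stood at 42.1, 37.7 and 40.4 CPM in vehicle and at 66.2, 68.2 and 66.2 CPM in T3. Its rise (log2 0.74, SE 0.08, adjusted p = 0.00079 by edgeR) was smaller than the rise of 2.21 in WT (adjusted p of the difference 4.8e-05). Its relatives nfia and nfib had log2 fold changes of 0.10 and -0.03 and were not called. The repressor genes nacc2 and bcl6 rose, by 0.72 (adjusted p = 0.0023) and 0.50 (adjusted p = 0.041), and fosl2, an AP-1 subunit, rose by 0.61 (adjusted p = 0.034) on the log2 scale. The calls of bcl6 and fosl2 were kept in 2 and 4 of the 12 fits with 1 library left out, against 12 for nacc2.

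In the list of metalloproteases and matrix genes, 2 of 16 features rose and none fell, where 23 of the 1544 features with a symbol rose and 2 fell. One was adamts10, a secreted protease gene, at 5.49, 5.7 and 6.13 CPM in vehicle and 12.1, 11.7 and 14.2 CPM in T3. Its rise (log2 1.13, SE 0.13, adjusted p = 0.0023 by edgeR) stood beside one of 0.87 in WT, and the 95% interval of the difference ran from -0.14 to 0.66. The other was mmp11, stromelysin-3, a classic T3-induced gene of metamorphosing tissues. It stood at 6.44, 6.81 and 5.98 CPM in vehicle and at 10.5, 10.7 and 8.8 CPM in T3 (log2 0.64, SE 0.10, adjusted p = 0.021 by edgeR), against a rise of 2.28 in WT (adjusted p of the difference 0.00019). A further member, adamts14, had a log2 fold change of 1.76 and missed the threshold (adjusted p = 0.056), with T3 replicate 1 at 3.77 CPM and the others at 12.2 and 8.86 CPM. By unadjusted p below 0.05, 10 of the 16 were higher in T3 and none lower, where 5.56% of all features tested were higher. Of the 1544 features with a symbol, from which the list was drawn, 229 were higher and 43 lower by the same measure. The list's median was 0.24 in the mutant and 0.38 in WT. Outside the list, cemip, whose product degrades hyaluronan, rose from 43 ± 8.42 to 87.6 ± 18.4 CPM (log2 1.03, adjusted p = 0.018) and lama4, a laminin chain, from 19.4 ± 1.45 to 26.1 ± 0.259 CPM (log2 0.43, adjusted p = 0.018).

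Peptide and neuroendocrine genes moved both ways. The gene inhbb, which encodes a subunit of activins and inhibins, stood at 0.652, 1.09 and 1.37 CPM in vehicle and at 3.83, 2.78 and 3.74 CPM in T3 (log2 1.72, SE 0.25, adjusted p = 0.011 by edgeR). In WT it rose by 3.59 on the log2 scale, and the difference was called (adjusted p = 0.035). The receptor gene brs3, a member of the bombesin receptor family known in mammals for its part in energy balance, fell in the mutant: 9.74, 11.7 and 12.1 CPM in vehicle and 6.95, 6.01 and 6.37 CPM in T3 (log2 -0.80, SE 0.13, adjusted p = 0.027 by edgeR). In WT its log2 fold change was 0.43 and not called (adjusted p = 0.051), and the 2 responses differed by -1.23 (adjusted p = 0.011). Without single libraries, brs3 stayed called in 7 of the 12 fits and its log2 fold change stayed negative in all of them. The hypothalamic hormone genes avp and oxt had log2 fold changes of 0.17 (interval -0.20 to 0.54) and 0.13 (interval -0.18 to 0.45).

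The neurogenic transcription factor gene neurod6 fell in the mutant. Its CPM was 25.5, 25.9 and 23.9 in vehicle and 16.6, 17.6 and 19 in T3, so that the groups did not overlap (log2 -0.50, SE 0.09, adjusted p = 0.041 by edgeR). In WT it rose, from 21.6, 22.6 and 18.9 CPM to 28.8, 24.5 and 28.3 CPM (log2 0.37, adjusted p = 0.021), and the difference of -0.87 between the responses was called (adjusted p = 0.0097). The call in the mutant was kept in 3 of the 12 fits with 1 library left out. The related gene neurod2 had the same pattern but missed the threshold in the mutant, with 23.4, 26.9 and 24.7 CPM in vehicle and 17.2, 15.3 and 17.5 CPM in T3 (log2 -0.59, adjusted p = 0.054). Its responses also differed between the genotypes (-1.06, adjusted p = 0.011). Of the 27 features of neural transcription factors, nfic rose, neurod6 fell and the other 25 were not called. Among the 1544 features with a symbol, 23 rose and 2 fell. The list had a median of 0.01 in the mutant and 0.37 in WT.

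**Figure D4:**
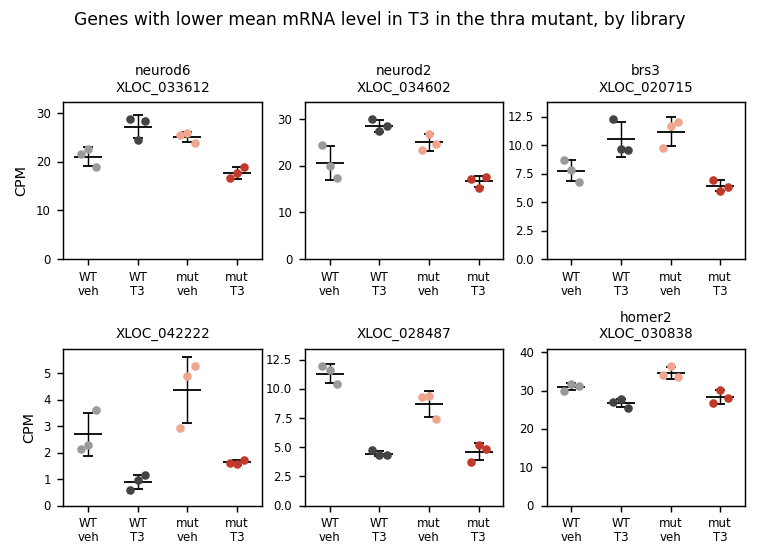
CPM of 6 genes with a lower mean in T3 than in vehicle in the thra mutant (vertical axes from 0), by library of the 4 groups; points are libraries, and bars show the mean and SD of 3. The genes neurod6, brs3, XLOC_042222 and XLOC_028487 were called in the mutant; neurod2 and homer2 missed the threshold (adjusted p = 0.054 and 0.096). In WT the means of neurod6, neurod2 and brs3 lie higher in T3 than in vehicle, and those of the other genes lie lower.

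The other called genes with a symbol rose by less than 2-fold. The amino acid transporter gene slc7a1 stood at 91.7, 79.7 and 79.1 CPM in vehicle and at 119, 188 and 145 CPM in T3 (log2 0.85, SE 0.15, adjusted p = 0.041 by edgeR), the widest spread among the T3 libraries of these genes. The pseudokinase gene trib2 rose by 0.43 (adjusted p = 0.039), nudt22, of the Nudix hydrolase family, by 0.32 (adjusted p = 0.045) and tbc1d14, a gene of membrane traffic and autophagy, by 0.29 (adjusted p = 0.041) on the log2 scale. These 4 calls were each kept in 3 of the 12 fits with 1 library left out. The signalling adaptor gene traf3 was not called, at 24.6 ± 2.17 CPM in vehicle and 32 ± 1.81 CPM in T3 (log2 0.38, adjusted p = 0.097).

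Among called features without a symbol, the largest rises were those of new_exon_scaffold_31_747 and XLOC_009068. XLOC_009068 stood at 1.53, 2.51 and 1.37 CPM in vehicle and at 13.1, 7.79 and 8.39 CPM in T3 (log2 2.45, SE 0.26, adjusted p = 0.001 by edgeR), and was called in every fit with 1 library left out. The low feature new_exon_scaffold_31_747 rose from 0.247 ± 0.054 to 1.54 ± 0.51 CPM (log2 2.63, SE 0.46, adjusted p = 0.038), a call kept in 5 of the 12 fits with 1 library left out and missed by limma-voom (adjusted p = 0.053). XLOC_014132, chosen for mention after its values were seen because it had the highest level of the called features, rose from 608 ± 75.1 to 1186 ± 100 CPM (log2 0.96, adjusted p = 0.0053). The largest falls were those of XLOC_042222, at 2.94, 4.89 and 5.28 CPM in vehicle and 1.6, 1.56 and 1.72 CPM in T3 (log2 -1.42, SE 0.26, adjusted p = 0.047), and XLOC_028487, at 9.31, 9.43 and 7.43 CPM in vehicle and 3.77, 5.22 and 4.89 CPM in T3 (log2 -0.91, SE 0.13, adjusted p = 0.012). The call of XLOC_042222 was kept in 4 of the 12 fits and missed by limma-voom (adjusted p = 0.064), and that of XLOC_028487 was kept in 10. Both fell in WT as well, by 1.57 and 1.35 on the log2 scale, and neither difference was called (adjusted p = 0.90 and 0.31).

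Large lists of genes that T3 raised in WT showed no called member in the mutant, where 0.254% of all features tested were called. At that share, lists of this size are not set apart by holding none. Their members have a symbol because of their WT response, which enlarges their WT counts and medians. None of 65 ribosome biogenesis features was called in the mutant and 42 were called higher in WT, with medians of 0.11 and 0.39. Of the 1544 features with a symbol, 25 were called in the mutant and 939 were called higher in WT. The counts of this list are near those shares. By unadjusted p below 0.05, 7 of the 65 were higher in the mutant and none lower, against 229 and 43 of the 1544 features with a symbol. DESeq2 called none, and the largest values were those of nle1 (log2 0.41, adjusted p = 0.32 by edgeR) and heatr1 (log2 0.33, adjusted p = 0.30 by edgeR). Of 32 features of the endoplasmic reticulum and secretory pathway none was called (medians 0.04 in the mutant and 0.28 in WT), with 3 higher and none lower at an unadjusted p below 0.05 and 2 called higher by DESeq2. Its members with the largest values were alg3, a glycosylation enzyme gene, at 0.32 (adjusted p = 0.096) and manf, whose product is a secreted ER stress protein, at -0.29 (adjusted p = 0.71). The chaperone and proteasome list also had no called member among 26 features, with medians of -0.01 and 0.32. Its highest member was the chaperonin subunit gene cct3, at 0.19 (adjusted p = 0.55). Here 5 members were lower and none higher at an unadjusted p below 0.05, none by DESeq2, among them dnaja1, an Hsp40 gene, at 97.5 ± 11.9 CPM in vehicle and 85 ± 5.78 CPM in T3. It rose in WT by 0.56 on the log2 scale, and its responses differed by -0.76 (adjusted p = 0.018). For 56 of the 65, 31 of the 32 and 25 of the 26 features the 95% interval of the mutant log2 fold change lay within 0.5 of 0. The WT medians also lay within 0.5 of 0, so that bound does not tell the mutant responses from responses of WT size. The difference between the genotypes was called for 1 of the 65, 0 of the 32 and 3 of the 26 features (0.527% of all features tested). For the other members that test did not tell the mutant response from the WT response.

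The cell cycle list is of interest because T3 drives proliferation of neural cells in tadpoles. None of its 18 features was called in the mutant and 12 were called higher in WT. Of the 1544 features with a symbol, 25 were called in the mutant and 939 were called higher in WT. These counts do not set the list apart. Its medians were 0.05 and 0.29. The growth-promoting transcription factor gene myc (44.2, 41 and 44.7 CPM in vehicle; 56.2, 86.1 and 68.6 CPM in T3) and gins3, of the replication helicase, came closest to the threshold, with log2 fold changes of 0.70 (adjusted p = 0.053) and 0.80 (adjusted p = 0.062) by edgeR. Both had DESeq2 adjusted p below the threshold (7.1e-05 and 0.00045), and both were called by edgeR without mutant T3 replicate 1 (adjusted p = 0.0093 and 0.011), in which fit 0.712% of all features were called higher. At an unadjusted p below 0.05, 3 of the 18 were higher and none lower, against 229 and 43 of the 1544 features with a symbol. Of the cell cycle genes examined by the study, ccnj (0.13), cdk8 (-0.09), cdk11b (0.02), cdk13 (0.01) and e2f6 (0.08) had an identifier, and each had a 95% interval of its log2 fold change within 0.5 of 0. In WT their log2 fold changes were 0.63, 0.31, 0.24, 0.24 and 0.25, and 3 of the 5 were called. For all but ccnj that bound thus does not tell the mutant response from one of WT size. The difference between the genotypes was called for 0 of these 5 and for 0 of the 18 features of the list. None of 22 synapse and ion channel features was called (median -0.03), against 25 of the 1544 features with a symbol. Here homer2, a postsynaptic scaffold gene, stood at -0.29 (adjusted p = 0.096 by edgeR). At an unadjusted p below 0.05, 2 of the 22 were higher and 1 lower, against the same 229 and 43 of 1544. DESeq2 called 1 in each direction.

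**Figure D5:**
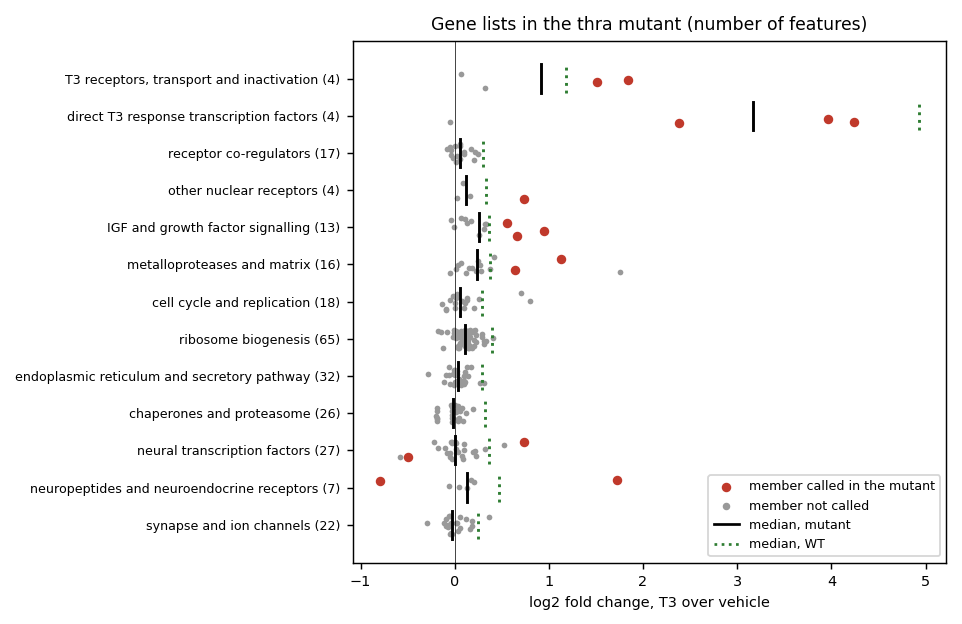
Log2 fold change of T3 over vehicle (horizontal axis) for each member of 13 gene lists in the thra mutant; red points were called and grey points were not, black bars are list medians in the mutant and dotted green bars the medians of the same members in WT. In each list the mutant median lies to the left of the WT median, for example at 0.11 against 0.39 for ribosome biogenesis. The members have a symbol because of their WT response, which enlarges the WT medians, so this order follows in part from the choice of members. Over all features with a symbol the medians are 0.05 in the mutant and 0.29 in WT.

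The genes with the strongest WT responses show how much of the response was seen without thra. Of 105 features induced over 2-fold in WT, 21 were called higher in the mutant, none was called lower, and their median log2 fold change was 0.41, against 1.57 in WT. Of all features tested, 0.2% were called higher and 0.0545% lower in the mutant. At an unadjusted p below 0.05, 48 of the 105 were higher and 1 lower, against 5.56% and 4.2% of all features tested. The 95% interval of the mutant fold change ended below 0.5 for 18 of them, ended below 50% of the WT change on the log2 scale for 42, and included the WT value for 11. A called difference from the WT response was found for 38 of them (0.527% of all features tested; 0.354% were called lower in the mutant). Of 88 features repressed over 2-fold in WT, 2 were called lower in the mutant, the medians were -0.22 and -1.37, and the difference was called for 4. Both sets were picked by their WT values, which enlarges the WT medians and, since the same WT values enter the difference between the genotypes, also the number of called differences. The counts of differences are therefore a description, and nothing is read from them against the share of all features. The mutant fold changes were not used in that choice. The mutant libraries did enter the shared fit, through its filter, its scaling and its estimate of the spread.

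How far an uncalled feature could still have changed depended on its level. The 95% interval of the log2 fold change lay within 0.5 of 0 for 13025 of the features tested (59.2%), and for 91.3% of the 11207 features above 10 CPM. The median distance from the estimate to either end of the interval was 0.17 above 10 CPM and 0.96 below 1 CPM. Between adjusted p of 0.05 and 0.1 lay 87 further features with a higher level in T3 and 35 with a lower level.

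The libraries held the mRNAs of the labelled tissue. The 5 neuron markers summed to 1500 to 1627 CPM in vehicle and 1488 to 1565 CPM in T3, the 5 radial glia and progenitor markers to 3501 to 3707 and 3393 to 3442 CPM, and the 3 neurosecretory markers (avp, oxt and sim1) to 117 to 194 and 167 to 177 CPM. The 2 oligodendrocyte lineage markers summed to 80.6 to 87.1 and 81.2 to 89.7 CPM. No marker was called. The 4 epithelial markers summed to 11.7 to 17.2 CPM in vehicle and 10.8 to 47 CPM in T3, with the highest value in T3 replicate 3, where krt12 stood at 35.6 CPM against 3.69 to 10.8 CPM in the other mutant libraries. Of the inner ear markers, ush1g held nearly all counts and otop1 was at or near 0 in every mutant library. The summed muscle markers ranged from 54.1 to 57.5 CPM over the 6 libraries. Most of that sum came from the features of xirp1 and lmod3, which also carry the symbols dhx30 and frmd4b. The sum is therefore no measure of muscle RNA. The remaining muscle marker, cnn1, stood at 5.98 to 9.34 CPM. The part of epithelial RNA in the results was not tested. In whole tissue, fewer cells of a type and less RNA per cell cannot be told apart.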

How the data were processed

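The authors mapped single-end reads with Bowtie to the X. tropicalis v4.1 genome and estimated expression with RSEM, using gene models of the MNHN. The authors deposited expected counts per feature (fractional, since RSEM shares reads between features), with TPM and FPKM values from the same reads; whether counting used strand is not given in the sources used here. Expected counts were rounded and tested with edgeR 4.0.16 (R 4.3.3; TMM, filterByExpr, 1 quasi-likelihood fit of the 4 groups). TPM served only as an alternative scale for marker sums and FPKM was not used. The methods name limma, run as an alternative (voom, limma 3.58.1), as was DESeq2 1.42.0. Replicates are pools of tadpoles. The steps were tested on simulated counts. Figures used matplotlib 3.10.9.

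Gene members and lists were chosen with earlier results of these data known. The text names called features with a symbol, the 2 largest called changes per direction without a symbol, the genes the study measured singly, the 2 largest members of each list with at least 1 CPM, its cell cycle genes and the markers; others named were chosen after their values were seen. Of the 16 genes measured singly, 9 had an identifier. Symbols came from part of a supplementary table of WT-regulated genes; 1157 of its 1161 gene identifiers matched RefSeq. No sequence or coordinate is given because no genome of the build was used here. The study's RT-qPCR was not analysed here, and some genes that meet the rule for named genes are not reported here.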

Additional observations from a re-analysis of the deposited data

Results flagged for a closer look

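For 17 features named above under the rule for named genes, the test of the difference between the genotypes passed the threshold (edgeR's quasi-likelihood test, 116 of 22018 features, 0.527%). Values are the mutant response minus the WT response in log2 units. For 12 of these features both responses were positive and the mutant one smaller: thibz (XLOC_028082) by -2.3, XLOC_009068 by -2.04, inhbb by -1.87, mmp11 by -1.64, thrb by -1.6, igf2 by -1.56, nfic by -1.47, bcl6 by -0.968, pappa by -0.906, traf3 by -0.824, nr3c2 by -0.635 and pim3 by -0.549. The same held for the progenitor marker prom1, at -0.434, whose mutant response of 0.12 was not called. A smaller response was not always a lower level in T3: the mean of pim3 in T3 was 68.1 CPM in the mutant and 67.8 CPM in WT. The other 4 of the 17 had responses of opposite sign, negative in the mutant and positive in WT: brs3 at -1.23, neurod2 at -1.06, neurod6 at -0.867 and dnaja1 at -0.756. Of those 4, neurod6 was called in both genotypes. XLOC_014132 and XLOC_044169, named above outside that rule, also passed, at -1.71 (adjusted p = 0.00094 by edgeR) and 0.717 (adjusted p = 0.0021 by edgeR). XLOC_044169 rose in the mutant and fell in WT. Symbols follow the WT response, so the direction of these differences is no measure of the mutant response. Among features with a symbol, 55 of 55 called differences were lower in the mutant. Among those without, 23 of 61 were.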

How the results depend on the processing

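Against 56 calls (44 higher, 12 lower) in the mutant, no filter on low counts gave 114 (89 and 25), DESeq2 393 (268 and 125), a test against a log2 change of 0.5 gave 5 (5 and 0), and a fit of only the 6 mutant libraries 30 (25 and 5). RLE size factors gave 57 and limma-voom 41. Leaving out 1 library gave 25 to 179 features in all, 20 to 160 higher and 3 to 40 lower. For the difference between the genotypes (116 features, 38 higher and 78 lower), DESeq2 called 655 (272 and 383) and the test against 0.5 called 9 (1 and 8); without 1 library the counts ran from 38 to 129, 7 to 47 and 31 to 82. The cause of these shifts was not tested. The summed muscle markers moved from 0.0262 to -0.0287 on the log2 scale with TPM.

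Replicate numbers did not pair the libraries: same-numbered libraries had correlations of their deviations of -0.08 to 0.14 in the mutant and -0.06 to 0.02 in WT. With the replicate number as a block the mutant calls were 30 (25 higher, 5 lower), or 28 (24 and 4) in the mutant libraries alone, and the difference was called for 75 features (23 higher).

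Over 609 alternatives for 29 values of called named genes, 428 kept direction and call, 181 kept the direction only and none changed sign. Over 964 alternatives for 46 uncalled ones, 25 became called and 19 changed sign. The mutant log2 fold changes that changed sign ran, without 1 library, from -0.0460 to 0.431 for avp, -0.0247 to 0.286 for oxt, -0.127 to 0.0223 for sox8, -0.105 to 0.0221 for ush1g, -0.0273 to 0.0592 for cdk11b, -0.0467 to 0.0335 for cdk13, -0.170 to 0.0254 for sim1, -0.0470 to 0.0519 for id4, -0.14 to 0.25 for cldn3, -2.55 to 2.60 for otop1 and -0.19 to 0.16 for cnn1. Differences between the genotypes that changed sign ran from -0.328 to 0.0668 for dio3, -0.14 to 0.16 for cemip, -0.0607 to 0.111 for fosl2 and -0.13 to 0.38 for XLOC_042222. For cemip RLE size factors gave -0.00413 and DESeq2 -0.00500. Below 1 CPM, depth limits the mutant response to intervals of about 0.96 on either side.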

Other observations

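T3 replicate 1, the mutant T3 library nearest to the vehicle libraries on the first principal component, was not nearest to vehicle in most called features. Over the 56 called features it was the T3 library nearest to the vehicle mean in 21, in the middle in 13 and farthest in 22. The calls used this library, so features in which it lay near vehicle were less likely to be called. The count therefore cannot show how near to vehicle this library was over all features.

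The following genes were chosen after their values were seen and were not called by edgeR with all libraries; they are given as values only. The leucyl-tRNA synthetase gene lars stood at 98.3, 70.8 and 105 CPM in vehicle and at 114, 169 and 150 CPM in T3 (log2 0.66, adjusted p = 0.097). The phenylalanyl-tRNA synthetase subunit gene farsb stood at 56.8, 37.6 and 66.6 CPM in vehicle and at 70.2, 115 and 102 CPM in T3 (log2 0.83, adjusted p = 0.099). The 95% interval of the mutant minus the WT response was -0.42 to 0.50 for lars and -0.55 to 0.61 for farsb.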
